A study of Mus musculus with 42 samples.

Results

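Stem cell and Wnt target genes of the colon were followed through RNA-seq of mouse colonic organoids, sorted goblet cells and sorted stromal cells. The set was chosen by gene name and consists of Lgr5, Rnf43, Znrf3, Axin2, Nkd1, Ascl2, Sox9, Lrig1, Smoc2 and Cd44, 10 of the 19232 gene names that occurred in the tables. The study asked how bone morphogenetic protein (BMP) signalling in Gli1+ stromal cells and the inflammatory cytokines IL-1 and IL-17A act on the colonic epithelium. It comprised 42 labelled libraries in 12 tables, each of which held 1 treated or knockout group with its control.

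Colonic organoids, which are epithelial cultures without stroma, came from wild-type mice. They were grown with EGF, Noggin, R-spondin1, 30% Wnt3a-conditioned medium and the GSK3 inhibitor CHIR, so that Wnt ligand and R-spondin were supplied to control and treated cultures alike. They were left as controls or given 10 nM IL-1α and IL-1β (IL-1 below) or IL-17A for 12 or 72 h, with 3 libraries per group. The sorted cells came from mice injected with tamoxifen on 5 consecutive days and were taken on day 30. Cre was driven by Gli1CreERT2, so that deletion was directed to Gli1+ stromal cells. Goblet cells were sorted by Muc2-mCherry from control (GWTM2), Smad4 knockout (GS4M2) and Alk3 knockout (GA3M2) mice. Stromal cells were sorted by the Gli1-driven tdTomato label from control (GWTT), Smad4 knockout (GS4T) and Alk3 knockout (GA3T) mice. Alk3 is the BMP receptor gene Bmpr1a, and Smad4 is the common mediator of BMP and TGF-β signals. Proximal and distal colon were sequenced apart, with 2 libraries per genotype, segment and cell type. The mice of the study were young adults of both sexes. Nothing in the labels says that libraries of 1 group came from separate mice or cultures, so p-values measure only the spread between these libraries.

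Canonical Wnt signalling stabilises β-catenin, which binds TCF/LEF factors at target genes and maintains the stem cells at the base of the colonic crypt. R-spondins bind LGR receptors and remove the ubiquitin ligases RNF43 and ZNRF3, which otherwise take Frizzled receptors off the cell surface. Several targets, among them AXIN2, NKD1, RNF43 and ZNRF3, dampen the pathway that induces them. Stromal cells around the crypt supply Wnt ligands, R-spondins and BMP antagonists, and BMP activity rises towards the lumen, where cells differentiate.

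Positions are given on GRCm38, the assembly also called mm10. Lgr5 lies at chr10:115450311-115587780 on the minus strand, Rnf43 at chr11:87662722-87735539 on the plus strand, Znrf3 at chr11:5276324-5444847 on the minus strand, Axin2 at chr11:108920349-108950783 on the plus strand and Sox9 at chr11:112782224-112787760 on the plus strand. Ascl2 lies at chr7:142966829-142969264 on the minus strand, Lrig1 at chr6:94604529-94700158 on the minus strand, Smoc2 at chr17:14279506-14404790 on the plus strand, Cd44 at chr2:102811141-102901665 on the minus strand and Nkd1 at chr8:88521354-88594884 on the plus strand.

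Because Axin2 and Rnf43 are feedback genes of the pathway of which 1 was called and the other was not after 72 h of IL-1, the 250 bases before their RefSeq start sites are shown, from GRCm38.p6, chr11:108920099-108920348 and chr11:87662837-87663086, both on the plus strand. Capitals mark CG pairs. Whether the changes of Axin2 and Rnf43 differed, and whether these sequences bear on them, was not tested.
Axin2: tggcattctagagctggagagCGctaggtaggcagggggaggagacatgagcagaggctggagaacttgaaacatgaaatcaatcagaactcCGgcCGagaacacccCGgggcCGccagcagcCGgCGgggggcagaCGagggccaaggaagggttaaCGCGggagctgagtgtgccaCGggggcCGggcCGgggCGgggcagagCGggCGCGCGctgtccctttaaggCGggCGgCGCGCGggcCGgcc
Rnf43: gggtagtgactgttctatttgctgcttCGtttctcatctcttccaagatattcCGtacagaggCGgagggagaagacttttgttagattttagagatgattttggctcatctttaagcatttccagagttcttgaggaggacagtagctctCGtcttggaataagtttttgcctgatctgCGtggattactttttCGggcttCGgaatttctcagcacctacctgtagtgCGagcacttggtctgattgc
The Axin2 window held 24 CG pairs and this Rnf43 window 8, while the median over 32851 RefSeq promoter windows was 6. Lrig1 had 26, Ascl2 19, Nkd1 6 and Cd44 5 CG pairs in the same stretch, and a second Rnf43 start had 2. The TCF/LEF core was searched on both strands as CTTTG with A or T in each of the next 2 places, 4 forms that exclude one another at a given base. It was in 0 of the 7 windows of these 6 genes and in 4874 of all 32851 windows (14.8%). The absence says only that these letters were not in these short windows. The gene positions above are GENCODE spans, while the windows follow RefSeq starts. Both Rnf43 windows and the Nkd1 window lay inside those spans, and the Lrig1 window partly did. Lgr5, Smoc2, Znrf3 and Sox9 had no entry in the promoter table used here. Lgr5 was also followed in the study by quantitative PCR, and the primers are shown because they mark which part of the transcript that assay read.
Lgr5 forward: cgtaggcaacccttctcttatc
Lgr5 reverse: gcaccattcaaagtcagtgttc
The forward primer lies in exon 8 of Lgr5-201 (chr10:115470569-115470590). The reverse primer spans the junction of exon 9 (chr10:115466556-115466562) and exon 10 (chr10:115466396-115466410), which gives a product of 114 bases.

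All levels below are normalised read counts, that is, reads divided by 1 size factor per library within a table, unless RPKM is named. Depth was 14815170 to 17665812 reads in organoids, 15647603 to 20783127 in goblet cells and 14222902 to 23686940 in stromal cells. The second control library at 12 h and the first at 72 h held the same reads, as did the fourth at both times, so the 6 organoid control labels stood for 4 distinct libraries and the 18 organoid labels for 16. The time at which these shared controls were taken is therefore not known, and where they enter a comparison the effect of treatment and that of time in culture cannot be told apart. The unshared controls were the first at 12 h and the second at 72 h. The sexes were mixed unevenly: Xist was above 200 normalised counts in 2 of 3 controls at 72 h, in 1 of 3 IL-1 libraries and in 0 of 3 IL-17A libraries. At 12 h the counts were 1 of 3 controls and 2 of 3 libraries of each cytokine. In stromal cells Xist was above 200 in 1 of 2 proximal and 2 of 2 distal GWTT libraries, in 2 of 2 GS4T libraries of each segment and in 1 of 2 GA3T libraries of each segment. In goblet cells it was above 200 in 1 of 2 controls of each segment and in 0 of 2 libraries of each knockout group. A gene was called when limma gave an adjusted p under 0.05 (Benjamini-Hochberg over all genes tested in a table) and the absolute log2 fold change was at least 1. All adjusted p below come from limma unless another tool is named.

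After 72 h of IL-1, most of the stem cell and Wnt target genes fell in the organoids. Of the set, 7 were lower and passed the test, led by Smoc2 and Lgr5, which fell 21.2-fold and 18.4-fold by group means, while the feedback gene Rnf43 overlapped with its controls. All 9 members tested had a negative fold change, and 7 of 9 were called lower, where 12.2% of the 13023 genes tested were called lower. The median log2 fold change was -1.68 over these 9 members and -0.00 over all genes tested. Each library held many cells, so fewer cells of a type and less RNA per cell cannot be told apart.

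Lgr5, the R-spondin receptor that marks crypt base stem cells, had 2606, 1237 and 1255 normalised counts in the controls and 142.1, 107.6 and 27.42 after 72 h of IL-1. The groups were far apart, and the third IL-1 library was the lowest. Lgr5 was 18.4-fold lower by group means, with a log2 fold change of -4.39 ± 0.60 (SE, n = 3 per group, adjusted p = 0.0032, limma). Znrf3, the ubiquitin ligase that removes Frizzled receptors, had 292.7, 404.9 and 371.4 in the controls and 177, 143.5 and 98.72 after IL-1. Its groups did not overlap, and it fell by 1.37 ± 0.27 on the log2 scale (adjusted p = 0.0081). Rnf43, the partner ligase with the same role, had 1448, 1106 and 1151 in the controls and 1177, 1012 and 724 after IL-1. These groups overlapped (log2 fold change -0.36 ± 0.21, adjusted p = 0.204), so 1 ligase was called and the other was not. Whether their changes differed was not tested.

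Axin2, a scaffold of the β-catenin destruction complex and a general Wnt target, had 828.4, 622.1 and 630 in the controls and 215.5, 338.8 and 133.8 after 72 h of IL-1. Every IL-1 library was below every control, and the log2 fold change was -1.68 ± 0.33 (adjusted p = 0.0080). Nkd1, which binds Dishevelled and limits Wnt signalling, was scarce, with 36.37, 4.763 and 5.936 in the controls and 3.612, 2.989 and 3.291 after IL-1. The first control alone was high, and the mean was under the limit of 10 for a test.

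Ascl2, the transcription factor that sets the stem cell program of the crypt, had 122.4, 82.88 and 83.1 in the controls and 10.83, 32.88 and 14.26 after IL-1. It fell by 2.38 ± 0.47 on the log2 scale (adjusted p = 0.0078), with no overlap. Sox9, a transcription factor of crypt base progenitors, had 1809, 1364 and 1404 in the controls and 369.6, 479.3 and 195.3 after IL-1. Its groups were far apart, and it was 4.38-fold lower by group means, its log2 fold change being -2.21 ± 0.32 (adjusted p = 0.0035).

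Lrig1, a brake on ErbB receptors that marks stem and early progenitor cells, had 3502, 4550 and 4530 in the controls and 2033, 1653 and 1056 after IL-1. It fell by 1.45 ± 0.25 on the log2 scale (adjusted p = 0.0051), and the groups did not overlap. Smoc2, a matricellular protein of the stem cell signature, had 2270, 1920 and 2075 in the controls and 134.8, 144.5 and 16.45 after IL-1. This was the largest fall of the set, 21.2-fold by group means and -4.89 ± 0.74 on the log2 scale (adjusted p = 0.0039), again with the third IL-1 library lowest. Cd44, a hyaluronan receptor and Wnt target, had 1355, 1702 and 1565 in the controls and 1079, 1020 and 455.2 after IL-1. All IL-1 libraries were below all controls, and the log2 fold change of -0.95 ± 0.32 (adjusted p = 0.0486) missed the limit of 1. Of the 9 members tested, 8 had every IL-1 library below every control, against 27.8% of all genes tested. With the sex of each library as a block, Lgr5, Znrf3, Axin2, Ascl2, Sox9, Lrig1 and Smoc2 were called again, and Cd44 had an adjusted p of 0.0966. In a fit added after seeing the data, the second control stood alone, as the 72 h control not shared with 12 h, and was assumed to vary like the treated libraries. The log2 fold changes were then -4.02 for Lgr5 (adjusted p = 0.0761), -4.78 for Smoc2 (0.0852), -2.06 for Sox9 (0.0856) and -1.58 for Lrig1 (0.0828). No member was called in that fit, 0 of 9, with 0% of all genes called lower.

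**Figure D1:**
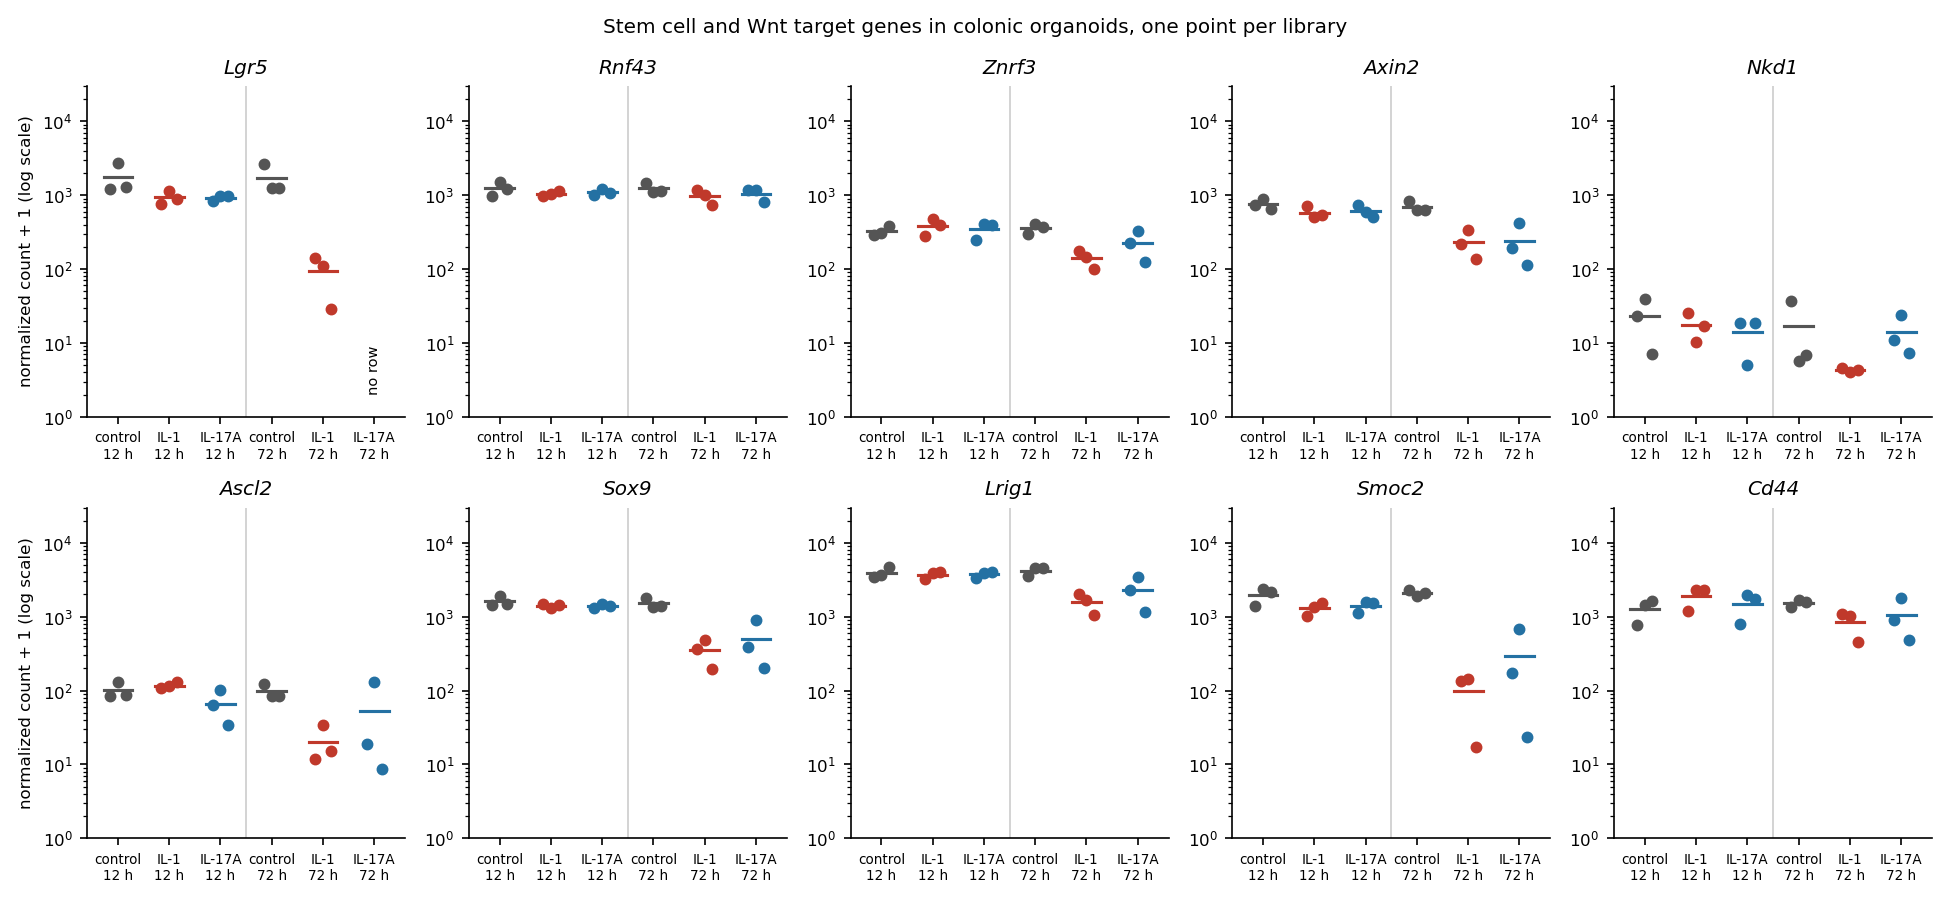
Normalised counts plus 1 (log axis) of the 10 genes in each organoid library at 12 and 72 h, with 1 point per library and a bar at the group mean (grey, control; red, IL-1; blue, IL-17A). After 72 h the IL-1 points of Lgr5 lie between 27.42 and 142.1 and the controls between 1237 and 2606, while Rnf43 overlaps between groups.

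After 72 h of IL-17A no member was called, and 4 of the 9 tested had every treated library below every control. Lgr5 had no row in that table and was not analysed here. Of 9 members tested, 0 were called, where 7.94% of the 13073 genes tested were called. With the p left unadjusted and the fold limit kept, 3 members passed (20.6% of all genes), DESeq2 called 3 (17.7% of all genes) and edgeR called 0. The median log2 fold change was -0.98 over the 9 members and -0.01 over all genes.

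Smoc2 had 172.5, 685.9 and 22.68 after 72 h of IL-17A and 2265, 1909 and 2071 in the controls. The groups did not overlap, and the log2 fold change was -3.88 ± 1.07 (adjusted p = 0.0577). Sox9 had 389.7, 891 and 202.8 after IL-17A against 1806, 1356 and 1401, a log2 fold change of -1.87 ± 0.49 (adjusted p = 0.0533) without overlap. Axin2 had 191.5, 421.5 and 113.4 against 826.8, 618.6 and 628.8, a log2 fold change of -1.71 ± 0.45 (adjusted p = 0.0538), also without overlap. In each of these genes the second IL-17A library was the nearest to the controls. Lrig1 had 2312, 3446 and 1168 against 3495, 4524 and 4521, a log2 fold change of -0.98 (adjusted p = 0.106). It was the last of the 4 members whose groups were apart in this way, which 23.6% of all genes tested showed.

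Ascl2 overlapped, since the second IL-17A library had 128 normalised counts while the other two had 17.92 and 7.559, and the controls had 122.2, 82.41 and 82.93. Znrf3 had 225.1, 329.3 and 123.5 against 292.1, 402.6 and 370.7 in the controls, and Cd44 had 899.3, 1797 and 477.5 against 1353, 1692 and 1561. In both genes the second library lay within or above the range of the controls, and the third was the lowest. Rnf43 had 1156, 1164 and 794.9 against 1445, 1100 and 1148, and Nkd1 had 10.08, 22.58 and 6.299 against 36.29, 4.736 and 5.924. Neither gene separated the groups, with adjusted p of 0.388 and 0.926.

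Without the second IL-17A library, 7 members were called lower, where 14.7% of all genes were. They were Smoc2 (-5.02, adjusted p = 0.0050), Ascl2 (-2.90, 0.0057), Sox9 (-2.42, 0.0035), Axin2 (-2.21, 0.0036), Lrig1 (-1.34, 0.0156), Cd44 (-1.22, 0.0167) and Znrf3 (-1.07, 0.0344), all as log2 fold changes. The call of genes in this table rested on single libraries also over all genes, with 3577 called without that library and 3 without the fourth control. The sum of 8 cycling cell markers, such as Mki67, was 2934 to 20838 after IL-17A and 27557 to 35675 in the controls, and the second IL-17A library had the highest of the treated sums. Mki67, a proliferation marker, had 2781, 7323 and 680.3 after IL-17A against 9068, 11624 and 11881.

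**Figure D2:**
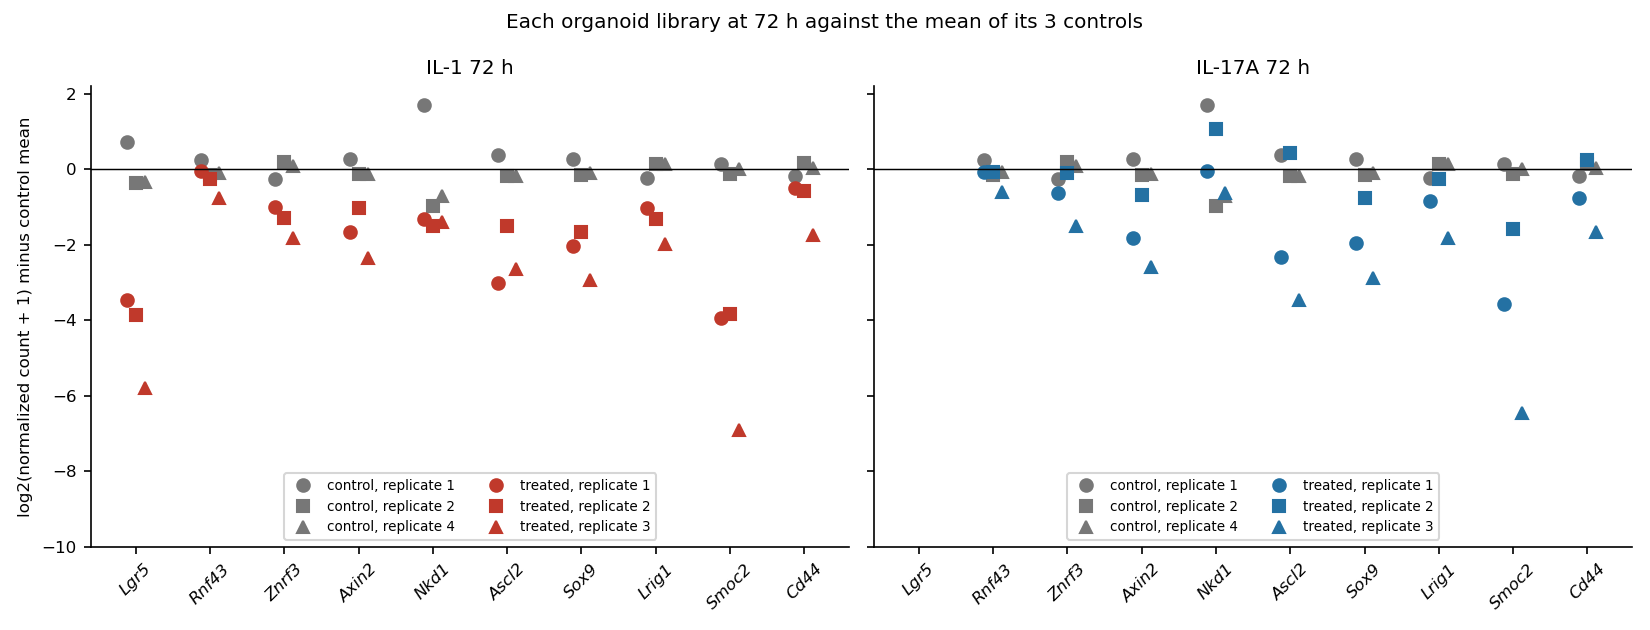
Each organoid library at 72 h as log2(normalised count + 1) minus the mean of its 3 controls, for the 10 genes (left, IL-1; right, IL-17A; marker shape, replicate number). The second IL-17A library (square) lies above the other treated libraries in Smoc2, Ascl2, Sox9 and Axin2, and the third IL-1 library (triangle) is the lowest in Lgr5 and Smoc2.

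Other cell markers moved with these values in the organoids after 72 h of IL-1. All 8 cycling cell markers were called lower, against 12.2% of all genes, with sums of 2841 to 7974 against 27613 to 35880 in the controls. Of 7 colonocyte markers, 4 were called higher, against 10.9% of all genes, with sums of 103901 to 228980 against 34237 to 73466. The sum of 7 general epithelial markers was 245761 to 269234 against 136936 to 156716, and 0 of these 7 were called. The goblet cell markers spread from 45771 to 175749 against 105060 to 111910, and 0 of 7 were called. Of the stromal markers, 4 had a row, with sums of 230 to 1151 against 136 to 283. The part of these cell markers in the fall of Lgr5 and the other members was not tested.

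At 12 h none of the genes passed the test, and Lgr5 alone lay below its controls in every library of both cytokines. With IL-1, 0 of 10 members were called, where 0.0542% of the 12913 genes tested were called. With IL-17A, 0 of 10 members were called, where 0.0385% of 12977 were called. With the p left unadjusted and the fold limit kept, 0 members passed, and edgeR and DESeq2 called 0 as well. The median log2 fold change was -0.18 over the members with IL-1 and -0.33 with IL-17A, against 0.00 and -0.00 over all genes.

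Lgr5 had 1206, 2749 and 1308 in the controls of the IL-1 table and 762.4, 1150 and 892.8 after 12 h of IL-1. In the IL-17A table the same controls had 1266, 2881 and 1370, and the treated libraries 833.8, 972.6 and 973. Every treated library was below every control in both tables, with 1 control far above the rest. The log2 fold change was -0.82 (95% CI -1.60 to -0.04, adjusted p = 0.886) with IL-1 and -0.89 (-1.62 to -0.16, adjusted p = 0.921) with IL-17A. Lgr5 was the 1 member of 10 with such a separation after IL-1, against 4.22% of all genes, and Lgr5 and Sox9 were the 2 after IL-17A, against 5.01%. Sox9 had 1518, 2000 and 1533 in the controls and 1316, 1460 and 1373 after 12 h of IL-17A, a log2 fold change of -0.27.

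The other members overlapped with their controls at 12 h. Smoc2 had 1373, 2394 and 2163 in the controls against 1008, 1370 and 1552 after IL-1, and its log2 fold changes were -0.58 with IL-1 and -0.54 with IL-17A. Axin2 changed by -0.40 and -0.39, Rnf43 by -0.21 and -0.22, Lrig1 by -0.09 and -0.14, and Znrf3 by 0.18 and -0.01. Cd44 had 763.8, 1430 and 1631 in the controls against 1184, 2276 and 2269 after IL-1, a log2 fold change of 0.59, and 0.14 with IL-17A. Ascl2 went in different directions, with 105.7, 113.4 and 127.7 after IL-1 and 62.46, 100.8 and 32.95 after IL-17A. Both cytokines shared the same control libraries, so their fold changes are not independent, and the cytokines are compared directly below.

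**Figure D3:**
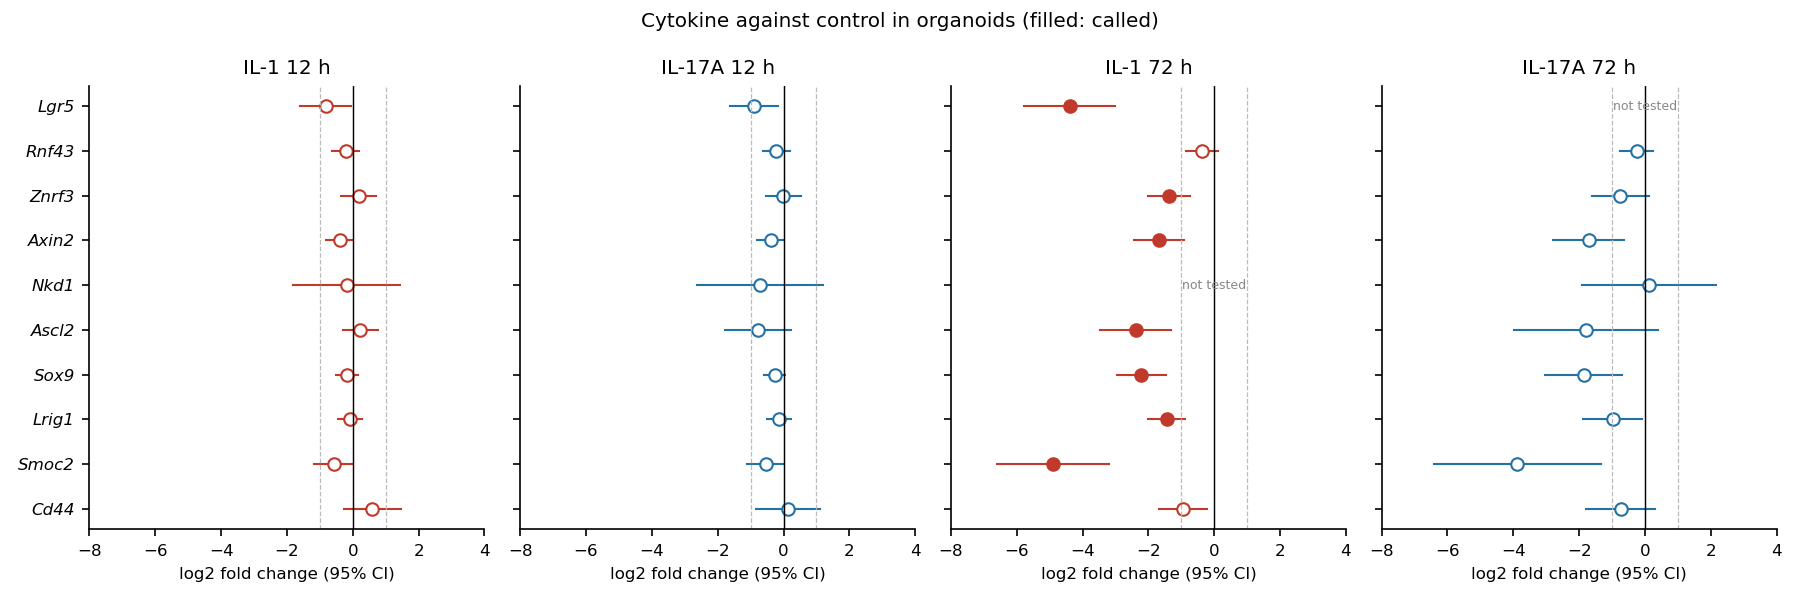
Log2 fold change of each gene (points, with 95% confidence intervals from limma) for cytokine against control in organoids, in 4 panels by cytokine and time, where filled points were called and dashed lines mark the limit of 1 in either direction. After 72 h of IL-1 the points run from -4.89 for Smoc2 to -0.36 for Rnf43, while the 12 h points lie between -0.89 and 0.59.

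The difference between times was tested by itself, as the 72 h fold change minus the 12 h fold change. With IL-1, 7 of 9 members passed and were lower at 72 h, where 10.2% of the 12681 genes tested passed in that direction. The difference was -4.32 ± 0.89 for Smoc2 (adjusted p = 0.0089), -3.57 ± 0.77 for Lgr5 (0.0104), -2.61 ± 0.52 for Ascl2 (0.0080) and -2.04 ± 0.38 for Sox9 (0.0067) on the log2 scale. It was -0.15 for Rnf43 (adjusted p = 0.726) and -1.54 ± 0.53 for Cd44 (0.0535). The control libraries with the same reads at both times entered both control groups. With them in, a change in the effect of IL-1 cannot be told apart from time in culture. Without them, with 1 control left per time, the IL-1 difference was -3.63 for Lgr5 (adjusted p = 0.118) and -4.68 for Smoc2 (0.124), and 0 of 9 members passed. When the treated libraries of both times were compared directly, with no control in the contrast, 8 members were called lower at 72 h, against 10.7% of all genes. That contrast also holds the longer time in culture. With IL-17A, 0 of 9 members passed, where 0.0393% of all genes did, and 5 passed without the second IL-17A library of 72 h, where 12.7% of all genes did.

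IL-1 and IL-17A were also compared with each other at the same dose and time. Without a block, at 12 h 0 of 10 members and 0% of all genes passed, and at 72 h 0 of 9 members and 0.0153% of all genes did. For Lgr5 at 12 h the log2 difference of IL-1 minus IL-17A was 0.06 (95% CI -0.61 to 0.74). Ascl2, the member with the lowest unadjusted p at 12 h, was higher with IL-1 by 1.01 (0.17 to 1.85), with an unadjusted p of 0.0234 and an adjusted p of 1.00 (limma). It was higher with IL-1 in all 3 libraries of the same number, but unevenly. As log2 ratios to the control mean, IL-1 against IL-17A was 0.11 against -0.71, 0.21 against -0.03 and 0.38 against -1.61. With the replicate number as a block the same difference had an adjusted p of 0.0124 (limma). That was 1 of 10 members called, against 0.217% of all genes. In this fit limma takes part of the spread from other genes, so this p says little about the uneven spread of Ascl2 itself. At 72 h 0 members were called with the block. At 72 h the difference was -1.02 (-3.61 to 1.58) for Smoc2 and 0.03 (-1.04 to 1.09) for Axin2. These intervals are wide, so a difference between the cytokines of 2-fold in Smoc2 lay within its interval.

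The rest of the Wnt pathway was read from lists of named genes after 72 h of IL-1. Of 17 receptors and coreceptors, 15 were tested, 3 were called lower and 0 higher, where 12.2% of all genes were called lower and 10.9% higher. The lower ones were Fzd9 (-3.15 on the log2 scale), Fzd3 (-2.92) and Ror2 (-1.54), with group means of 23.1 against 1.46, 58.0 against 6.86 and 157 against 60.8. None of the 12 tested genes of the destruction complex and its transducers was called, 0 in either direction, with a median log2 fold change of 0.10. Of 6 nuclear partners tested, Tcf7l1 (1.56) and Tcf7l2 (1.22) were called higher and Tcf7 (-1.09) lower, all 3 being DNA-binding partners of β-catenin.

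Among 15 other Wnt targets tested, the cell cycle gene Cdca7 (-2.75) and the growth regulator Myc (-1.36) were called lower and the angiogenic factor Vegfa (1.58) higher, 2 and 1 genes against the same background. Of 17 other crypt base and stem cell genes tested, 5 were called lower and 1 higher, against 12.2% and 10.9% of all genes. Mex3a, an RNA-binding protein, fell from a mean of 223 to 62.5 (-1.93), and the Na-K-Cl cotransporter gene Slc12a2 fell from 16587 to 6449 (-1.44). Rgmb (-1.46), Bmi1 (-1.14) and Cdk6 (-1.03) were lower too, while Ly6a, a marker of regenerating epithelium, was higher (1.26). The list medians were -0.22 for receptors, 0.29 for nuclear partners, -0.23 for other targets and -0.18 for the crypt base list, against -1.68 over the members.

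After 72 h of IL-17A, Fzd1 (from a mean of 385 to 849), Vegfa (1.57) and Ly6a (1.35) were called higher and Bmi1 (-1.21) lower in these lists, and no other listed gene was called by limma, against 7.94% of all genes. At 12 h 0 listed genes were called with either cytokine, where 0.0542% of all genes were called with IL-1 and 0.0385% with IL-17A.

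The genes most like Lgr5 were sought by Pearson's r of log2 values over the 15 labelled organoid libraries of the 3 tables that hold Lgr5, among 12568 genes. The leading genes were Aqp1 (r = 0.994), Srl (0.991), Glud1 (0.990), Kank1 (0.990) and Cbs (0.989). Among the members, Sox9 (0.980) and Smoc2 (0.979) ranked 25 and 27, Axin2 (0.938) and Lrig1 (0.926) ranked 492 and 684, and Cd44 (0.684) ranked 3166. These points share control libraries and are spread mainly by the fall at 72 h, so r is a description only. Over the 9 labelled 12 h libraries alone, r with Lgr5 was 0.979 for Aqp1, 0.846 for Rnf43, 0.842 for Sox9 and 0.829 for Smoc2. It was 0.540 for Axin2, 0.356 for Ascl2, 0.307 for Lrig1, 0.0857 for Znrf3 and 0.0690 for Cd44. The second 12 h control was the highest in both Lgr5 and Aqp1. Aqp1 had 993.6 there against 331.8 and 390.7 in the comparison with IL-1, and r without that library was not computed. Aqp1, a water channel, had 942.0, 380.1 and 374.8 in the controls of 72 h and 44.5, 43.8 and 12.1 after IL-1.

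The levels of the genes in control cells were compared per length, as RPKM, reads per kilobase of exon scaled to the depth of the library. In the 4 distinct organoid controls, Lrig1 was highest with 47.0 ± 8.59 (SD), followed by Sox9 with 23.8 ± 3.46, and each stood apart from the next gene in order. Smoc2 (18.1 ± 4.13), Cd44 (13.1 ± 4.33), Rnf43 (11.7 ± 2.21), Lgr5 (10.1 ± 4.51) and Axin2 (8.38 ± 1.11) each overlapped with the next of these 5 in order. Ascl2 (3.76 ± 0.827) overlapped with Znrf3 (2.83 ± 0.543), and Nkd1 was lowest with 0.248 ± 0.216.

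In GWTM2 goblet cells Lrig1 (44.8 ± 2.68) and Sox9 (34.2 ± 7.77) again led, while Lgr5 was at 1.04 ± 0.205 (n = 4 libraries), near the bottom of the order. In GWTT stromal cells Cd44 led with 24.0 ± 5.10, and Nkd1 was at 2.74 ± 1.15. Rnf43 (0.238 ± 0.105), Lgr5 (0.0958 ± 0.0691) and Ascl2 (0.0367, in the 2 libraries with a row) were at the bottom there. Levels of the 3 cell types come from tables normalised apart and from different preparations, and no test was made between them.

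**Figure D4:**
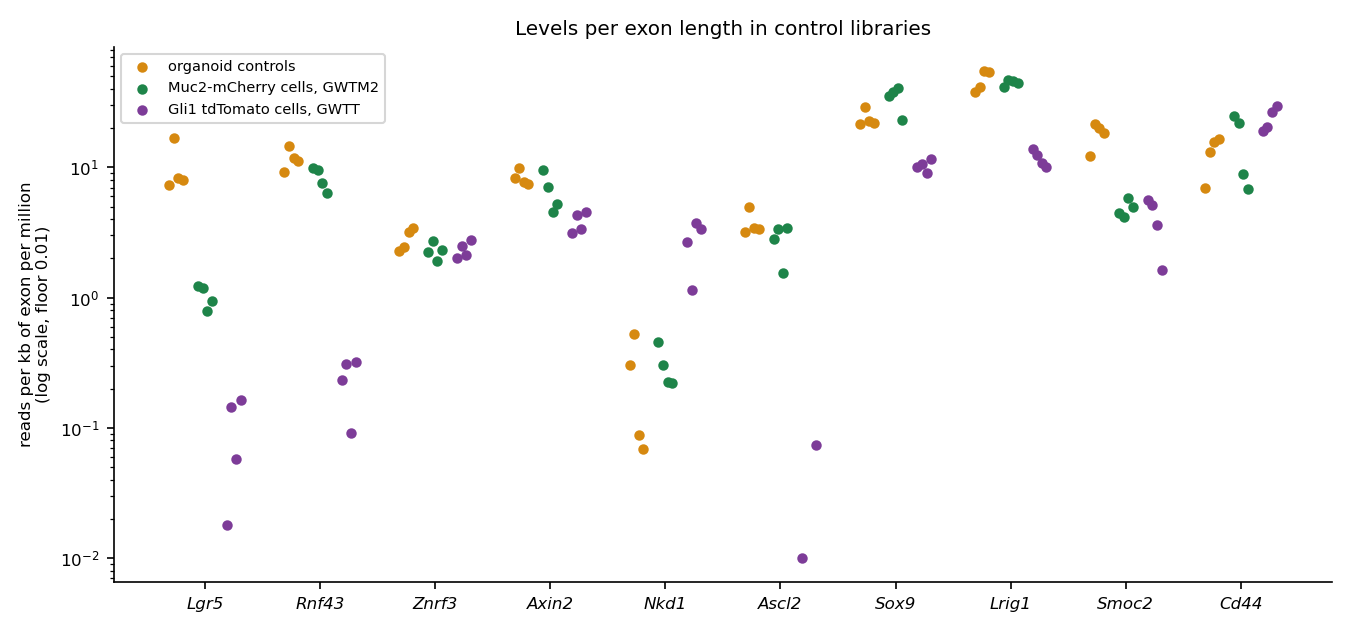
RPKM (log axis, values under 0.01 drawn at 0.01) for the 10 genes in control libraries, with 1 point per library (orange, organoids; green, GWTM2 goblet cells; purple, GWTT stromal cells). Lgr5 runs from a mean of 10.1 in organoids over 1.04 in goblet cells to 0.0958 in stromal cells, and the means of Nkd1 are 0.248 in organoids, 0.300 in goblet cells and 2.74 in stromal cells.

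In goblet cells from mice with the deletion in Gli1+ stromal cells, no member was called. The GS4M2 comparison called 0 of 10 in the proximal colon (0.325% of 13246 genes) and 0 of 10 in the distal colon (0% of 13078 genes). The GA3M2 comparison called 0 of 10 in the proximal colon (0.0899% of 13346 genes) and 0 of 10 in the distal colon (0% of 13082). With the p left unadjusted at 0.05 and the fold limit kept, Axin2 in distal GS4M2 passed (2.7% of all genes), and DESeq2 called it as well (1.12% of all genes). No other member passed either way in these 4 comparisons, and edgeR called 0. Without the control library of each segment that had Xist, 0 members were called in each of the 4 tables.

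Axin2 had 439.5 and 523 in the distal GWTM2 libraries and 774.9 and 1201 in the GS4M2 libraries. The groups did not overlap, and the log2 fold change was 1.01 ± 0.25 (n = 2 per group, adjusted p = 0.381, limma). The share of all genes whose groups did not overlap was not counted in sorted cells. Ascl2 in the same table had 44.15 and 100.7 against 93.9 and 232.6 and overlapped. Muc2, the gene of the sorting label, had 43021 and 113478 against 238217 and 194631 there, and its part in the Axin2 value was not tested. In proximal GS4M2 the lowest unadjusted p was that of Sox9, with 2469 and 2696 against 3637 and 3113, a log2 fold change of 0.38 (adjusted p = 0.198). Lgr5 there had 214.6 and 208.3 against 239.6 and 255.5, a log2 fold change of 0.23.

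In proximal GA3M2, Lgr5 was lower, with 228.5 and 220.2 in the controls and 136.9 and 95 in the knockout libraries. The groups were apart, with a log2 fold change of -0.97 (95% CI -1.65 to -0.29, adjusted p = 0.244). In distal GA3M2 it had 138.2 and 169.4 against 147.8 and 158.2, a log2 fold change of -0.00. Without the first proximal GA3M2 library, which left 1 knockout library, the proximal Lgr5 log2 fold change was -1.23. In distal GA3M2, Rnf43 had 836.1 and 723.3 against 1269 and 1248 (log2 fold change 0.69 ± 0.15, adjusted p = 0.306), and Smoc2 had 683.5 and 604.2 against 1216 and 968.1 (0.75 ± 0.18, adjusted p = 0.320). Both genes were higher in both knockout libraries without passing the test. How many of all genes had their 2 groups apart in these comparisons was not counted.

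Marker sums in the GA3M2 sorts lay apart from those of the controls. The macrophage marker sum in proximal and distal GA3M2 tables was 42.6 to 101 in controls and 478 to 729 in knockout libraries. The macrophage genes with a row numbered 5 in the proximal and 4 in the distal table. The goblet cell marker sum was 536053 to 591548 in proximal controls and 170195 to 225255 in proximal GA3M2 libraries. In the distal table it was 571259 to 1068680 against 200049 to 360654. Muc2 had 179572 and 224217 in proximal controls and 18753 and 14042 in proximal GA3M2, and 41156 and 109532 against 16015 and 12294 in the distal colon. The part of the goblet cell and macrophage values in the Lgr5, Rnf43 and Smoc2 values was not tested. The targeted genes in goblet cells were Smad4, with 1904 and 1684 in proximal controls against 1776 and 1845 in GS4M2, and Bmpr1a, with 1966 and 2131 in proximal controls against 1572 and 1336 in GA3M2. Distal values were 2820 and 2790 against 2571 and 2682 for Smad4 and 1588 and 1868 against 1372 and 1410 for Bmpr1a. Bmpr1a was thus lower in each GA3M2 library, and it was also lower in GS4M2, for example 1846 and 2015 against 1468 and 1586 in the proximal colon. Whether any allele was deleted in goblet cells was not tested. With both knockouts, 0 of 10 members differed between segments when the proximal fold change was set against the distal (GS4M2 0% and GA3M2 0% of all genes).

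In stromal cells the targeted genes were first checked. Smad4 had 1604 and 1673 in proximal GWTT and 705.5 and 835.3 in GS4T (log2 fold change -1.09, adjusted p = 0.0101), and 1781 and 1703 against 680.3 and 1171 in the distal colon (-0.96, adjusted p = 0.0424). Bmpr1a had 2960 and 3220 in proximal GWTT and 2233 and 1842 in GA3T (-0.61), and 3359 and 3485 against 2203 and 2043 in the distal colon (-0.69, adjusted p = 0.101). Gli1, the gene that drives the sorting label, was at 23.92 in the second proximal GS4T library and 34.72 in the second proximal GA3T library, against 642.1 to 1680 in the other proximal libraries. The epithelial gene Epcam had 52.73 and 1061 in proximal GWTT against 2713 and 3918 in GS4T, and 55.48 and 1115 against 1234 and 1897 in GA3T. Distal values were 146.7 and 422.1 against 1888 and 3361 in GS4T, and 167.3 and 480.3 against 2509 and 1270 in GA3T. The sum of 7 epithelial markers was also higher in every knockout library than in every control of its table, for example 20535 to 28269 against 262 to 8677 in proximal GS4T and 8783 to 18951 against 1099 to 3422 in distal GA3T. The part of epithelial RNA in the values of Rnf43, Lgr5 and the other members was not tested.

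No member was called in stromal cells by limma. In GS4T 0 of 9 were called in the proximal colon (9.61% of 15319 genes) and 0 of 9 in the distal colon (14% of 15262 genes). In GA3T 0 of 9 were called in the proximal colon (0.358% of 15346 genes) and 0 of 9 in the distal colon (0% of 15414 genes). With unadjusted p and the fold limit kept, 1, 2, 1 and 1 members passed in these tables in that order, against 16%, 18.5%, 9.46% and 7.77% of all genes. DESeq2 called the same numbers, against 13.1%, 15.8%, 6.31% and 5.03% of all genes, and edgeR called 0. Ascl2 had no row in 3 of the 4 tables, and in distal GS4T it was at 0 and 1.936 against 0.8858 and 15.27, under the limit for a test.

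Rnf43 passed the unadjusted limit in all 4 tables and was higher in every knockout library than in every control. It had 25.85 and 33.81 against 66.4 and 162.5 in proximal GS4T (log2 fold change 1.78 ± 0.53, adjusted p = 0.0820), and 9.779 and 33.88 against 59.35 and 149.1 in distal GS4T (2.30, adjusted p = 0.0725). In GA3T it had 27.2 and 35.55 against 76.15 and 124 in the proximal colon (1.61, adjusted p = 0.139) and 11.16 and 38.56 against 124 and 89.31 in the distal colon (2.28, adjusted p = 0.184). Both knockouts were read against the same GWTT libraries, so the comparisons of 1 segment are not independent. Epcam was also higher in every knockout library than in every control. The share of all genes apart in this way was not counted in stromal cells.

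Cd44 had 2171 and 2304 in proximal GWTT and 3991 and 4642 in GS4T. The log2 difference of 0.94 ± 0.12 (adjusted p = 0.0118) missed the fold limit. In distal GS4T it had 2954 and 3279 against 5484 and 3836 (0.56, adjusted p = 0.0798), in proximal GA3T 2284 and 2423 against 3376 and 4634 (0.75, adjusted p = 0.124), and in distal GA3T 3370 and 3731 against 3323 and 3320. The macrophage marker sum was 2643 to 3974 in proximal GWTT and 13314 to 22289 in proximal GS4T. It was above the controls in the other stromal tables too. In distal GA3T, where Cd44 was not higher, it was 12001 to 16267 against 8807 to 11365 in the controls. The part of macrophages, which also carry Cd44, was not tested.

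Znrf3 had 270.9 and 324.8 against 166 and 203.3 in proximal GS4T (log2 fold change -0.69, adjusted p = 0.0848) and 276.7 and 356.2 against 177.2 and 200.8 in the distal colon (-0.73, adjusted p = 0.0559). In proximal GA3T it had 285 and 341.5 against 183.4 and 162.8 (-0.85, adjusted p = 0.124), and in distal GA3T 315.7 and 405.4 against 229.2 and 278.6 (-0.50). Each knockout library was below each control in these tables, and no value passed the test. The share of all genes apart in this way was not counted, and both knockouts shared the GWTT controls. Axin2 had 302.2 and 406.6 against 191.3 and 245.4 in distal GS4T (-0.69, adjusted p = 0.0830), and 289.5 and 395.5 against 300.6 and 223.3 in the proximal colon, where the groups overlapped.

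Smoc2 had 414.6 and 183.9 against 574 and 948.8 in distal GS4T (log2 fold change 1.41, adjusted p = 0.0617), and 657.6 and 592.3 against 331.1 and 639.9 in the proximal colon (-0.44). Lrig1 had 1128 and 1041 against 1510 and 2328 in distal GA3T (0.79, adjusted p = 0.180), and Sox9 had 610.2 and 782.2 against 447.3 and 501.4 in distal GS4T (-0.54, adjusted p = 0.0679). The groups were apart in the distal values of these 3 genes without a call, and the share of all genes apart in this way was not counted. Nkd1 in proximal GS4T had 205.8 and 87.1 against 278.5 and 216.3 (0.87). Lgr5 was below 35 normalised counts in each of these stromal tables, for example 3.102 and 24.59 against 15.68 and 33.89 in proximal GS4T. Between segments 0 of 9 members differed in GS4T (0.195% of all genes) and 0 of 9 in GA3T (0% of all genes).

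**Figure D5:**
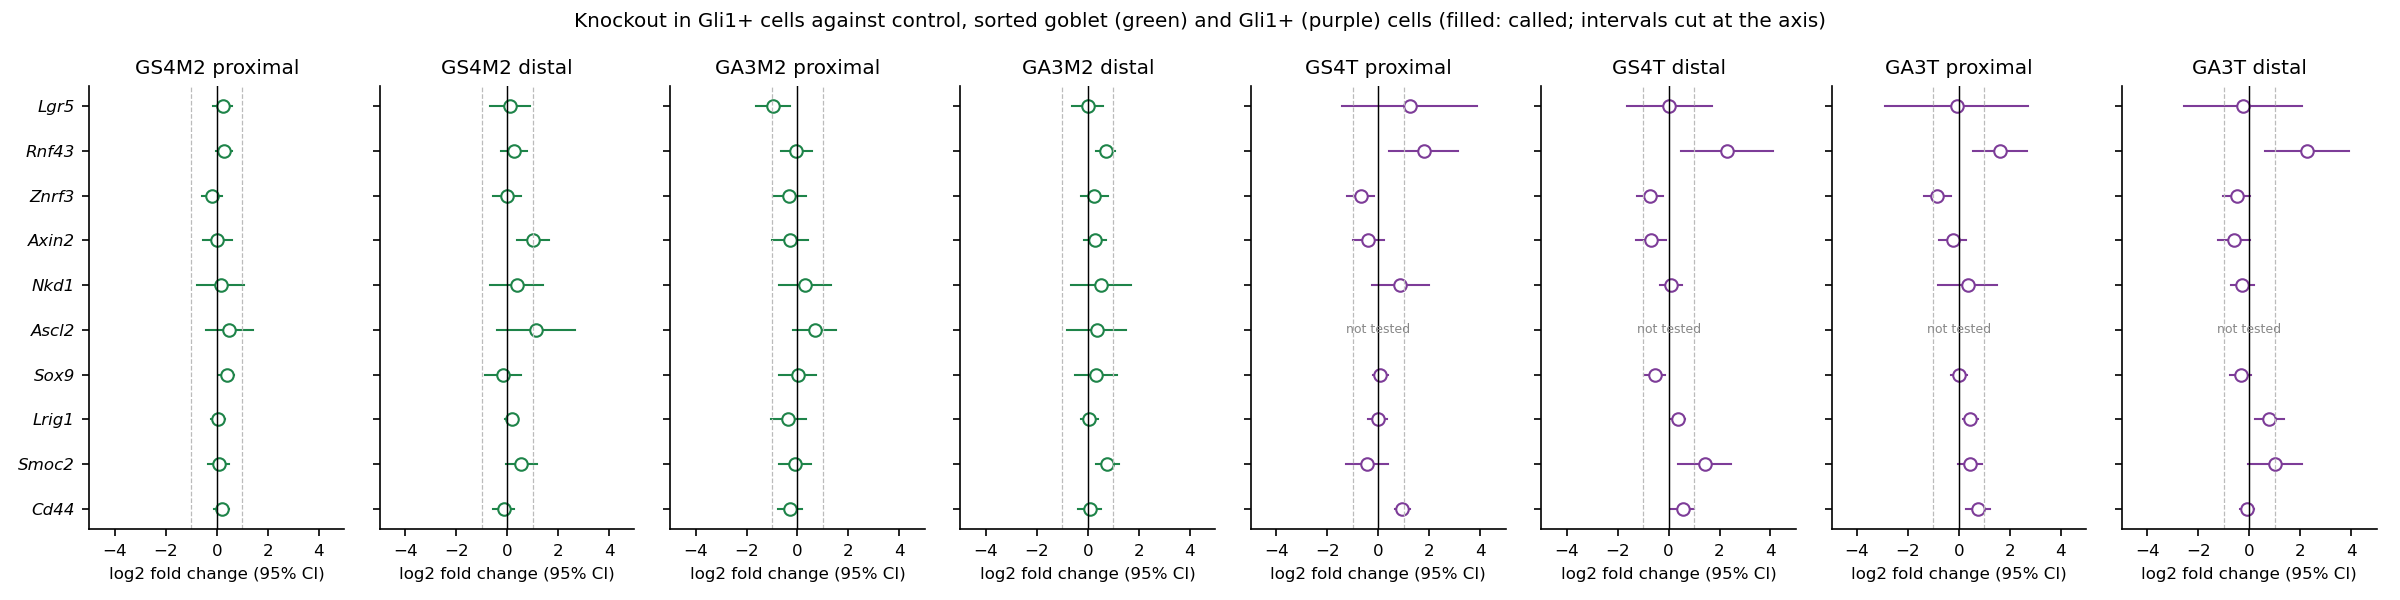
Log2 fold change of each gene (points, with 95% confidence intervals from limma) for knockout against control in sorted goblet cells (green) and Gli1+ stromal cells (purple), in 8 panels by genotype and segment, where a filled point would mark a call. No point is filled, and Rnf43 in stromal cells lies between 1.61 and 2.30 in the 4 purple panels.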

How the data were processed

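The values are a signal per gene: per the methods of the study, the authors mapped reads uniquely to mm10 with STAR 2.5.3 and normalised gene counts with DESeq2 1.28.1, and each deposited table holds counts divided by 1 size factor per library. The counting program, annotation and strand setting are not given in the sources used here. In every library 100% of values were whole multiples of 1 step (within 0.1 of a read), so whole reads were recovered for depth, edgeR and DESeq2. Samples were grouped by the labels. Names reversed between GS4M2 and GWTM2 in a heading of the study were resolved by the deposited column names. Rows without a gene name, 4 in each GS4M2 table with up to 28.2% of the values, were left out.

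Genes whose mean in a table was under 10 were dropped, values were moved to the log2 scale with a pseudocount of 1, and limma 3.58.1 with a trend was fitted to each table alone, so fold changes of low genes are understated. The time and segment differences were interaction terms over 2 tables. IL-1 and IL-17A were compared after their tables were put on 1 scale through the shared control libraries. Libraries of both cytokines carried the same 3 numbers at each time, and same-numbered ones deviated together (r of 0.59 to 0.86 at 12 h and 0.45 to 0.73 at 72 h), so the numbers were taken to pair them, although no label says so and at 12 h libraries 3 and 4 also correlated across numbers (0.59). Adjusted p are Benjamini-Hochberg over all genes tested. All 10 members were named in every table that holds them, other genes from fixed pathway lists when called or by likeness to Lgr5. The members and lists were chosen with earlier results of these data known. The alternatives were edgeR 4.0.16, DESeq2 1.42.0, other pseudocounts (0.1, 10), filters (none, 50) and scaling, a replicate block and each library left out. A sex block, a direct comparison of treated libraries and fits without the shared controls were added after seeing the data. The fit was also run on simulated counts with known changes, drawn independently for each library. That simulation had no shared control reads and no deviations common to same-numbered libraries, and its outcome is not used here. Exon lengths are from GENCODE M21 and promoter windows from RefSeq, GRCm38.p6. Antisense reads cannot be told apart. Depth was 14222902 to 23686940 reads per library.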

Additional observations from a re-analysis of the deposited data

Results flagged for a closer look

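The fold change with IL-1 differed between 12 h and 72 h in 7 genes. They passed the adjusted p of an interaction term in limma and a limit of 1 on the log2 scale. The 72 h fold change minus the 12 h fold change was -3.57 for Lgr5, -4.32 for Smoc2, -2.61 for Ascl2, -1.28 for Axin2, -1.55 for Znrf3, -2.04 for Sox9 and -1.36 for Lrig1. The control libraries that hold the same reads at both times entered both sides of this difference. With them in, a change in the effect of IL-1 cannot be told apart from time in culture. Without those libraries, with 1 control left per time, no member passed, and the differences were -3.63 for Lgr5 and -4.68 for Smoc2.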

How the results depend on the processing

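Of 301 alternative counts of called members, 276 stayed within 1.5 times the reported count. The reported count was 0 in every comparison except IL-1 at 72 h and the IL-1 time difference. Most of the 276 are thus counts of 0 that stayed at 0. With DESeq2 the counts were 3 for IL-17A at 72 h, 1 for distal GS4M2, 1 for proximal GS4T, 2 for distal GS4T, 1 for proximal GA3T and 1 for distal GA3T, and an unadjusted p gave the same counts of 3, 1, 1, 2, 1 and 1, where limma gave 0. Leaving out 1 library gave 7 to 8 members for IL-1 at 72 h, 0 to 7 for IL-17A at 72 h (7 without its second treated library), 6 to 8 for the IL-1 time difference, 0 to 5 for the IL-17A time difference (5 without the same library), and 0 to 1 for proximal GA3M2, proximal GS4T, distal GS4T and distal GA3T. The single calls were Lgr5 without the first proximal GA3M2 library, Nkd1 without the first proximal GWTT library, Smoc2 without the first distal GWTT library and Lrig1 without the first distal GA3T library. All other comparisons kept 0 throughout these omissions. An arm left with 1 library was assumed to vary like the other arm. Each single call named above came from such a fit and is not a result by itself. The sex block, added after seeing the data, gave 7 for IL-1 at 72 h. In proximal GS4T and in distal GA3T 1 library differed in sex from the rest. There the block gave the fold changes found without the first proximal GWTT and first distal GA3T libraries, and is no separate result. For IL-17A at 72 h no treated library had Xist above 200. The block thus set the treated libraries against the first control alone, which is shared with 12 h. Leaving out the control libraries shared by both times, also added after seeing the data, left 1 control per time and gave 0 for IL-1 at 72 h and 0 for the IL-1 time difference. The cause of these changes was not tested.

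With the replicate number as a block, 5 members were called for IL-1 at 72 h (Ascl2 and Znrf3 were lost, with adjusted p of 0.0587 and 0.0822), 4 for the IL-1 time difference, 1 in distal GS4T (Rnf43) and 1 for IL-1 minus IL-17A at 12 h (Ascl2). At 12 h the block left 2 pairs, and Lgr5 had log2 fold changes of -0.61 with IL-1 and -0.55 with IL-17A, under the limit of 1. The adjusted p were 1.12e-05 and 2.87e-09 (limma). With 2 pairs limma takes most of the spread from other genes, so these p say little about the spread of Lgr5 itself. No label says that a number marks a shared culture or animal, and each treated or knockout group shared 2 numbers with its control, so these samples share only a number. Deviations of same-numbered treated and control libraries correlated at 0.62 to 0.64 at 12 h, where the fourth control correlated as highly with the third IL-1 (0.63) and IL-17A (0.64) libraries, 0.18 and 0.20 for IL-1 at 72 h, -0.10 and -0.19 for IL-17A at 72 h and -0.06 to 0.30 in sorted cells. No libraries of 1 group were near-identical, so entering them apart was not a different fit and was not run. Of 114 member values, 37 changed sign under some alternative, none of them called, and the largest of these was 1.24 (Lgr5 in proximal GS4T).

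Counts over all genes moved more. IL-17A at 72 h gave 1038 genes with limma, 869 with edgeR, 2311 with DESeq2, 4 with the block and 3 to 3577 without 1 library. IL-1 at 72 h gave 2998, 2971 with edgeR, 3189 with DESeq2 and 1513 with the block. At 12 h IL-1 gave 7 against 2 with edgeR and 43 with DESeq2, and IL-17A 5 against 4 and 51. No difference under 2-fold could be called in any gene, whatever its depth.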
